A study of Mus musculus with 24 samples.

Results

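The Nr4a family of orphan nuclear receptors has 3 genes in the mouse, Nr4a1, Nr4a2 and Nr4a3. They were taken by symbol from the 46078 Ensembl genes counted in each library, and all 3 had reads in every library and were among the 15128 genes tested. The libraries were bulk RNA-seq of heart tissue from wild-type C57BL/6 mice, 24 in all with 3 in each of 8 groups. The groups were a sham operation, ischemia for 45 min with no reperfusion, and the same ischemia with blood flow then restored for 0.5, 1, 1.5, 3, 6 or 12 h (reperfusion). The labels name neither the region of the heart that was taken nor separate animals behind the 3 libraries of a group, so p-values measure only the spread between these samples, which may be technical. The treatment labels give no time after surgery for sham, and 1 sham group serves all reperfusion times. A change against sham therefore cannot be told apart from one with the hours since surgery. The design asks how the transcripts of the injured heart change over the first hours of reperfusion.

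Nr4a proteins are transcription factors with the DNA-binding and ligand-binding folds of the nuclear receptors, but the pocket that holds a hormone in other family members is filled by bulky side chains. Their activity is therefore set largely by how much protein is made, and the genes are immediate early genes, copied within minutes of a signal without new protein synthesis. They respond to cyclic AMP, calcium, growth factors and inflammatory signals, and in the heart to beta-adrenergic stimulation. Each binds DNA as a monomer at the NBRE sequence, and Nr4a1 and Nr4a2 also pair with the retinoid X receptors.

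Nr4a1 (Nur77, ENSMUSG00000023034), studied for its roles in cell death, T cells and macrophages, lies on chr15:101254269-101274795 of GRCm38 on the plus strand. Nr4a2 (Nurr1, ENSMUSG00000026826), needed for midbrain dopamine neurons, lies on chr2:57106830-57124003 on the minus strand. Nr4a3 (Nor-1, ENSMUSG00000028341), known from vascular smooth muscle and muscle metabolism, lies on chr4:48045153-48086447 on the plus strand. The GENCODE vM21 annotation places 0 other genes over any of them, so the unstated strand setting of the counting bears little on these counts. Multiply mapped reads made up at most 3.77% of the reads of any member in any library.

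Because all 3 members were called higher from 0.5 to 3 h, their proximal promoters are shown, read from the RefSeq table of GRCm38.p6 windows (250 bases before to 50 after the annotated start). Capitals mark TGACG on either strand, the core of the cyclic AMP response element (CRE) that CREB and related factors bind; read on the other strand it is CGTCA. Each stretch begins 250 bases before the start and ends at the base before it, or at 30 bases into an earlier exon of GENCODE vM21. The printed stretches are chr15:101266596-101266845 on the plus strand, chr2:57124004-57124253 on the minus strand and chr4:48045055-48045182 on the plus strand.
Nr4a1: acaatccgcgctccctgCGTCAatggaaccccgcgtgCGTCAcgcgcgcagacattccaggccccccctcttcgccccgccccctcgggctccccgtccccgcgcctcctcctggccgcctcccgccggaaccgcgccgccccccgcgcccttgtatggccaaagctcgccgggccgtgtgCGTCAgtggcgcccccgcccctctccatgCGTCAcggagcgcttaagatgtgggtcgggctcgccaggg
Nr4a2: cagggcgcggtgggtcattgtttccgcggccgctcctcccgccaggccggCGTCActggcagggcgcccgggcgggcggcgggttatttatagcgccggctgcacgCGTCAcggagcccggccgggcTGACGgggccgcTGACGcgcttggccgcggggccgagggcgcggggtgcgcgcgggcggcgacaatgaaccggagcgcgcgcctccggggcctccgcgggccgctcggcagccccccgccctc
Nr4a3: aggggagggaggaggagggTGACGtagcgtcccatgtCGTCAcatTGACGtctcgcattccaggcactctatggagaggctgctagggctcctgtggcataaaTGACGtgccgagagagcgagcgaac

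Each of the 3 windows held 4 matches to TGACG, whereas 20.8% of 32851 RefSeq promoter windows held at least 1 and 0.231% held at least 4. In Nr4a1 the matches began at positions -233, -213, -69 and -40 from the start, all on the strand opposite to the gene. In Nr4a2 they began at -200, -144, -123 and -111, the first 2 on the opposite strand, and in Nr4a3 at -231, -213, -205 and -147, of which only -213 was on the opposite strand. The Nr4a3 match at -147 lies past the first base that GENCODE vM21 gives the gene, so it is upstream of the RefSeq start only. The whole Nr4a1 window lies inside the GENCODE span of that gene, downstream of its first base. The whole palindrome TGACGTCA, which contains TGACG on both strands, was in 0 of the 3 windows and in 1.79% of all windows. The serum response factor's CArG box was in 0 of the 3 and in 1.63% of all, and the NBRE (AAAGGTCA on either strand) in 0 of the 3 and in 1.51% of all. A MEF2 site stood in the Nr4a2 window, as in 3.19% of all windows, and overlapped the TATA box letters (TATAAA on either strand) that 13.6% of all windows held. These matches describe letters in a window and not binding.

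**Figure D1:**
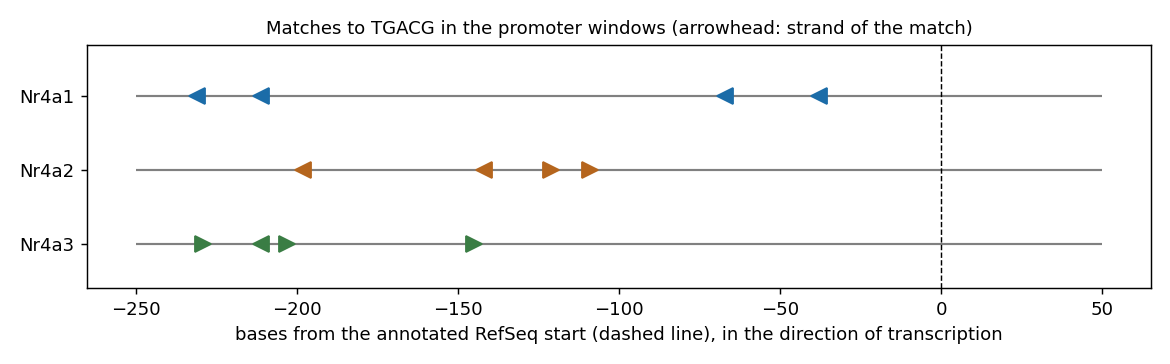
Positions of TGACG in the 3 promoter windows; the x axis gives bases from the RefSeq start (dashed line) and each arrowhead points along the strand that reads TGACG. Each gene has 4 arrowheads, all upstream of the RefSeq start, and the Nr4a3 arrowhead at -147 lies past the GENCODE vM21 start of that gene.

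Unique counts came to 13407465 to 17181458 per library, with 39.2% to 54.5% marked as duplicates and 19.0% to 33.2% from the mitochondrial genome. Both shares moved with the groups: mitochondrial reads made up 20.02% to 22.3% at 0.5 h, 24.9% to 27.3% at 1.5 h and 19.0% to 21.3% at 6 h, against 28.9% to 33.2% in sham, and duplicates 44.4% to 46.1% at 0.5 h, against 50.1% to 54.4% in sham. With scaling that left out the mitochondrial genes, all 3 members were still called higher at each time from 0.5 to 3 h, as they were with duplicates removed. Nr4a1 was counted by 148 to 9475 reads per library, Nr4a3 by 63 to 2445 and Nr4a2 by 22 to 315, so Nr4a2 was measured least precisely. Levels below are CPM, which scale the counts by library size and edgeR's TMM factors, and 3 counts, the limit that a count of 0 allows, equal 0.175 to 0.224 CPM. Among cell markers, all 10 of the cardiomyocyte list had reads in every group and summed to 50734 to 94310 CPM. The cardiomyocyte sum was 70137 to 73172 CPM in sham. It lay wholly above sham at 0.5 h (75664 to 77872 CPM) and 1.5 h (76155 to 81576). It lay wholly below sham at 12 h (50734 to 60100 CPM) and overlapped sham in the other groups. No pair of libraries was identical. The most alike pair, 0.5 h replicate 3 and 1 h replicate 2, crossed groups and differed by a chi-square of 5.63 per degree of freedom, and 8 of the 24 libraries were nearer to a library of another group than to any of their own.

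There were 2 libraries that stood farthest from their own group. Ischemia replicate 3 differed from the other ischemia libraries by a chi-square of 63.4 and 72.6 per degree of freedom and from 0.5 h replicate 2 by 8.77. It had 19.0% mitochondrial reads, where the other ischemia libraries had 29.7% and 30.2%, and it was the highest ischemia library for all 3 members. Without it the log2 fold changes of ischemia against sham were 1.44 for Nr4a1, 1.77 for Nr4a2 and 0.54 for Nr4a3, and those of 0.5 h against ischemia were 1.33, 0.83 and 1.22, none of them called by edgeR (adjusted p from 0.0993 to 0.980). For 0.5 h against ischemia edgeR then called 1170 genes in place of 5. Replicate 1 of the 1 h group differed from the others of its group by 45.3 and 61.7, and without it the 3 members were still called higher than sham, at 3.25 for Nr4a1, 2.81 for Nr4a2 and 2.68 for Nr4a3 (edgeR adjusted p = 0.00111, 0.000763 and 0.00225).

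Nr4a1 was the most abundant member and was higher than in sham from 0.5 to 3 h of reperfusion. It stood at 29.2, 47.9 and 77.4 CPM in the sham libraries (replicates 1, 2 and 3) and at 149, 129.6 and 257 CPM after ischemia alone. It stood at 400.5, 169 and 478 CPM at 0.5 h, at 499, 566 and 405 CPM at 1 h, and at 626, 359 and 481 CPM at 1.5 h. Every library from ischemia to 1.5 h was above the highest sham library. At 3 h Nr4a1 read 103, 327 and 232 CPM, at 6 h 80.1, 32.6 and 27.4 CPM, and at 12 h 8.13, 23.5 and 33.3 CPM. The 3 h libraries still lay above all sham libraries, and those of 6 and 12 h overlapped them.

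Against sham, the log2 fold change of Nr4a1 was 2.77 ± 0.50 at 0.5 h (SE, n = 3 against 3; edgeR's quasi-likelihood test, Benjamini-Hochberg adjusted p = 0.00150). It was 3.25 ± 0.51 at 1 h (edgeR adjusted p = 0.000232), where the mean of 490.2 ± 80.9 CPM (SD) was 9.52 times the sham mean of 51.5 ± 24.3 CPM. The value was again 3.25 ± 0.51 at 1.5 h (edgeR adjusted p = 0.000159) and 2.10 ± 0.48 at 3 h (edgeR adjusted p = 0.00175). Ischemia alone gave 1.80 ± 0.48, or 1.44 without replicate 3, which did not pass (edgeR adjusted p = 0.242 and 0.817), although the 3 ischemia libraries lay above the 3 sham libraries. At 6 h the difference was -0.14 ± 0.47 (edgeR adjusted p = 0.837). At 12 h it was -1.25 ± 0.48, which missed the threshold (edgeR adjusted p = 0.0519), and it was called in 5 of 16 alternatives (adjusted p from 2.50e-14 to 0.265). The lowest of these came from the edgeR fit without the low-count filter.

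Nr4a2 was the rarest member, with few reads in sham hearts and a course like that of Nr4a1. It stood at 1.80, 1.71 and 1.92 CPM in the sham libraries and at 4.83, 7.56 and 8.67 CPM after ischemia. It read 9.80, 5.45 and 17.8 CPM at 0.5 h, 13.7, 16.0 and 9.32 CPM at 1 h, and 21.0, 7.89 and 19.2 CPM at 1.5 h. The sham libraries were close to each other, and every library from ischemia to 1.5 h was above them. It read 5.24, 7.54 and 10.2 CPM at 3 h, 3.25, 2.26 and 1.81 CPM at 6 h, and 1.21, 2.02 and 1.76 CPM at 12 h. The 3 h libraries were above sham, while the 6 h and 12 h libraries reached into the sham range.

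Nr4a2 rose against sham by a log2 fold change of 2.60 ± 0.42 at 0.5 h (SE; edgeR adjusted p = 0.000590) and 2.84 ± 0.42 at 1 h (edgeR adjusted p = 0.000120). Its largest value was 3.15 ± 0.42 at 1.5 h (edgeR adjusted p = 1.80e-05), a mean of 16.0 ± 7.12 CPM against 1.81 ± 0.104 CPM in sham (SD, n = 3 each), or 8.86 times. At 3 h it was 2.08 ± 0.42 (edgeR adjusted p = 0.000568). After ischemia alone Nr4a2 differed from sham by 1.96 ± 0.42 without passing (edgeR adjusted p = 0.0814), and 4 of 16 alternatives called it (adjusted p from 4.10e-12 to 0.476). The lowest of these came from the edgeR fit without the low-count filter. At 6 h and 12 h the differences were 0.43 ± 0.46 and -0.11 ± 0.47 (edgeR adjusted p = 0.455 and 0.880).

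Nr4a3 had its highest group means at 1.5 and 3 h. It stood at 8.86, 13.4 and 6.80 CPM in the sham libraries, at 16.1, 12.1 and 30.8 CPM after ischemia and at 29.0, 12.4 and 57.0 CPM at 0.5 h. At both of these points the lowest library lay within the sham range. It read 66.8, 75.8 and 47.7 CPM at 1 h, 159, 79.6 and 162 CPM at 1.5 h, and 95.9, 163 and 89.2 CPM at 3 h. From 1 to 3 h every library was above all sham libraries. The level was 16.4, 19.9 and 17.9 CPM at 6 h and 3.46, 4.85 and 8.70 CPM at 12 h. The 6 h libraries were all above sham, and the 12 h libraries overlapped it.

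The log2 fold change of Nr4a3 against sham was 2.71 ± 0.44 at 1 h (SE; edgeR adjusted p = 0.000361), 3.78 ± 0.45 at 1.5 h (edgeR adjusted p = 4.98e-06) and 3.58 ± 0.45 at 3 h (edgeR adjusted p = 2.32e-06). The 1.5 h mean of 134 ± 46.9 CPM was 13.8 times the sham mean of 9.67 ± 3.35 CPM (SD, n = 3 each), the largest ratio to sham of any group mean among the 3 members. At 0.5 h it rose by 1.76 ± 0.43 (edgeR adjusted p = 0.0121). That edgeR call was lost without sham replicate 1 (1.69, edgeR adjusted p = 0.0543), without sham replicate 3 (1.56, adjusted p = 0.0682) or without 0.5 h replicate 3 (1.09, adjusted p = 0.115). Over 16 alternatives the adjusted p of edgeR, DESeq2 or limma-voom was 1.60e-26 to 0.115. Ischemia gave 1.03 ± 0.44, or 0.54 without ischemia replicate 3 (edgeR adjusted p = 0.500 and 0.980), 6 h 0.90 ± 0.44 (edgeR adjusted p = 0.0946) and 12 h -0.78 ± 0.47 (edgeR adjusted p = 0.212), none of them called.

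**Figure D2:**
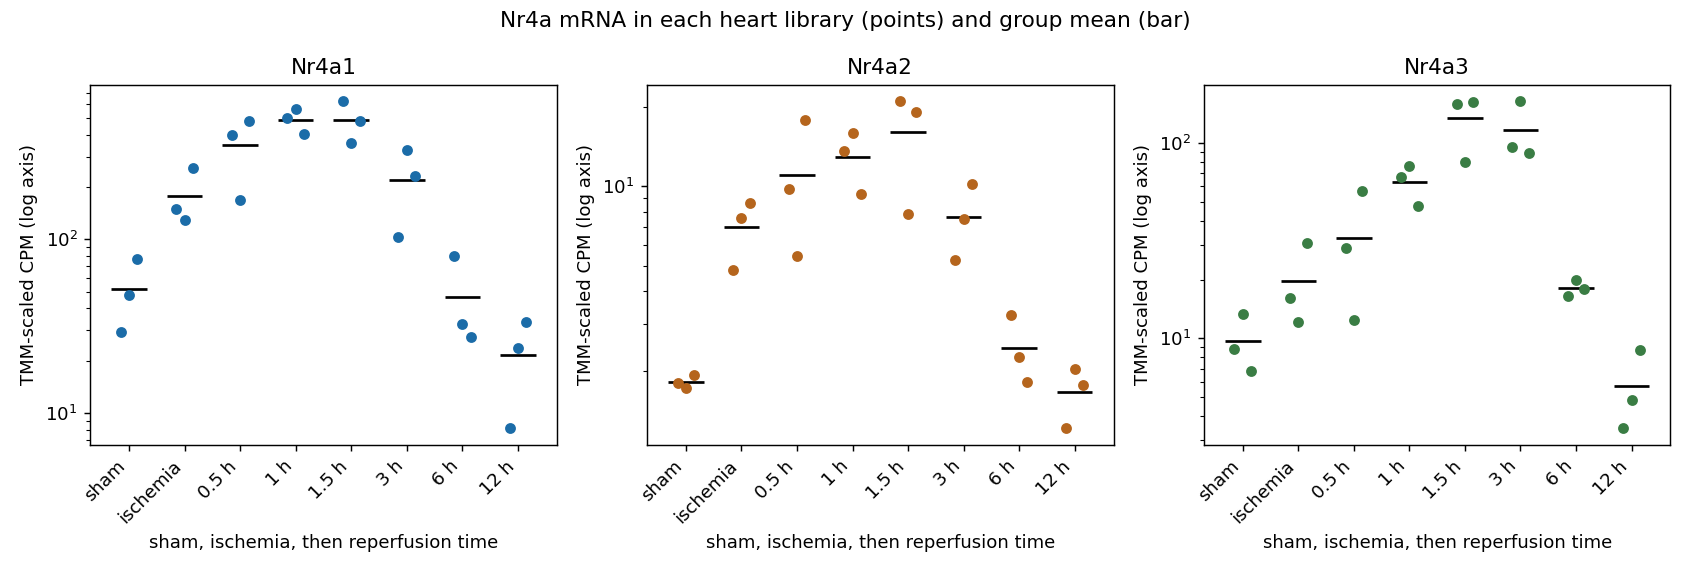
TMM-scaled CPM of Nr4a1, Nr4a2 and Nr4a3 in each library (points) with the group mean (bar), on log axes whose ranges differ between panels; the x axis runs through sham, ischemia and the reperfusion times. Nr4a1 and Nr4a2 stand highest at 1 to 1.5 h, and Nr4a3 at 1.5 to 3 h.

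All 3 members were thus called higher at 0.5, 1, 1.5 and 3 h. Of all genes tested, 7.43% were called higher and 4.48% lower at 0.5 h, 7.46% and 3.41% at 1 h, 4.55% and 2.99% at 1.5 h, and 18.4% and 16.9% at 3 h. CPM ranges wholly above sham were seen for Nr4a1 and Nr4a2 at 0.5 h, beside 20.8% of all genes, and for all 3 members at 1 h (16.9% of all genes), 1.5 h (16.9%) and 3 h (23.7%). By log2 fold change Nr4a1 ranked 62 of 15128 genes at 1 h, and Nr4a3 ranked 56 at 1.5 h and 104 at 3 h. With reads scaled by library totals alone, the share of called genes that were higher was 87.6% in place of 62.4% at 0.5 h, 81.7% in place of 68.6% at 1 h and 76.8% in place of 53.1% at 12 h. The median log2 fold change of all genes was then 0.12 at 0.5 h and 0.23 at 12 h, and all 3 members were still called higher at each of the 4 times from 0.5 to 3 h. In bulk tissue, fewer cells of a type and less RNA per cell cannot be told apart.

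After ischemia alone edgeR called 0 of the 3 members, where it called 0.0925% of all genes higher and 0% lower. At an unadjusted p under 0.05 it took all 3, beside 8.57% of all genes, DESeq2 called Nr4a2, and limma-voom called 0. At 6 h edgeR, DESeq2 and limma-voom each called 0 members and 0 had an unadjusted p under 0.05, while 24.6% of all genes were called higher and 22.9% lower. At 12 h the 3 tools again called 0 members, with 1 at an unadjusted p under 0.05 beside 41.4% of all genes, while 16.9% of all genes were called higher and 14.9% lower. CPM ranges that lay apart from sham on the higher side were shared by 7.74% of all genes after ischemia, where Nr4a1 and Nr4a2 showed it, and by 30.6% at 6 h, where Nr4a3 did.

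**Figure D3:**
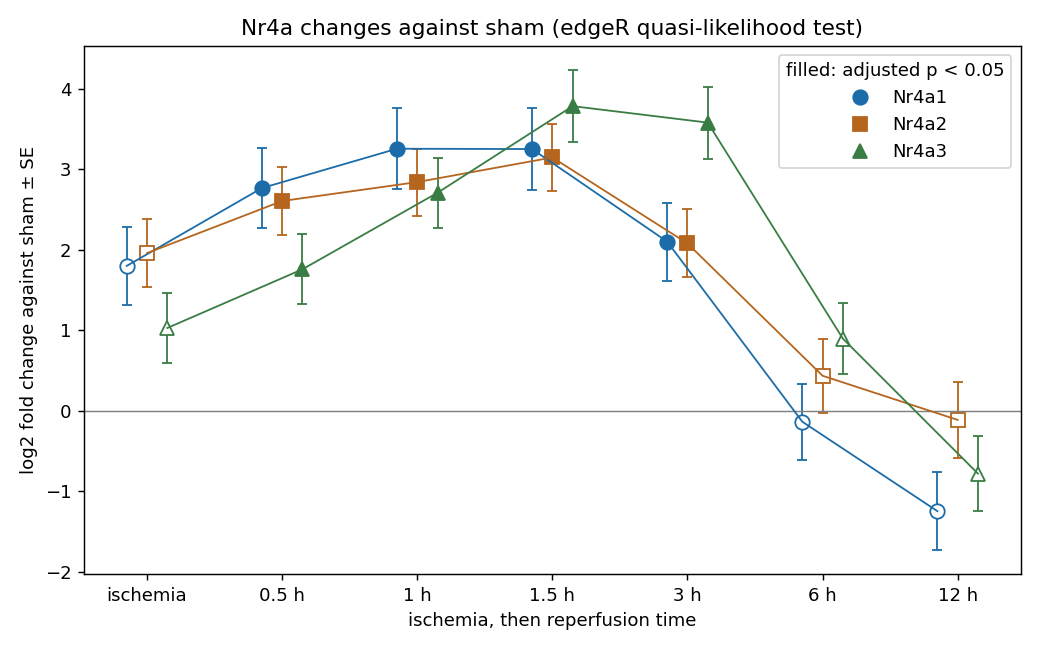
Log2 fold change against sham (y axis, bars ± SE derived from edgeR's F) of the 3 members after ischemia and at each reperfusion time. Filled symbols have an adjusted p under 0.05. Symbols are filled from 0.5 to 3 h only, and Nr4a3 stands highest at 1.5 and 3 h, at 3.78 and 3.58.

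Across the course as a whole each member differed between the 8 groups (edgeR F test, adjusted p = 1.71e-07 for Nr4a1, 2.36e-07 for Nr4a2 and 1.00e-08 for Nr4a3), as 64.3% of all genes did. Step by step, the fall between 3 and 6 h was the change that all 3 passed. There Nr4a1 fell by 2.24 ± 0.49 on the log2 scale (SE; edgeR adjusted p = 0.00143), Nr4a2 fell by 1.64 ± 0.40 (edgeR adjusted p = 0.00352) and Nr4a3 fell by 2.68 ± 0.42 (edgeR adjusted p = 5.39e-05), with no overlap between 6 h and 3 h libraries. In that step 14.7% of all genes were called higher and 13.2% lower, and 19.5% had ranges wholly below. The mean of Nr4a3 was 18.1 ± 1.72 CPM at 6 h against 116 ± 41.1 CPM at 3 h (SD).

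Nr4a3 fell again by 12 h, by 1.68 ± 0.45 against 6 h (SE; edgeR adjusted p = 0.0148), in a step where 6.49% of all genes were called higher and 6.68% lower. The 12 h libraries lay wholly below the 6 h libraries, as for 17.9% of all genes. The edgeR call was lost without 6 h replicate 2 (-1.60, edgeR adjusted p = 0.0599), 12 h replicate 1 (-1.45, adjusted p = 0.0796) or 12 h replicate 2 (-1.60, adjusted p = 0.0636). Over 16 alternatives the adjusted p of edgeR, DESeq2 or limma-voom was 7.02e-22 to 0.0796. Nr4a1 and Nr4a2 gave -1.11 ± 0.48 and -0.55 ± 0.45 in that step and were not called (edgeR adjusted p = 0.134 and 0.452). With library totals alone, 80.7% of the genes called between 6 and 12 h were higher in place of 49.3%, with a median over all genes of 0.15, and Nr4a3 was still called lower (edgeR adjusted p = 0.0248).

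The single steps before the highest levels were not called. Between ischemia and 0.5 h, 0.5 and 1 h, and 1 and 1.5 h edgeR, DESeq2 and limma-voom each called 0 members, with 1 member at an unadjusted p under 0.05 in each step, beside 12.4%, 6.63% and 10.5% of all genes. Of all genes edgeR called 0.0331% higher and 0% lower in the first of these steps, 0% in either direction in the second and 0.0529% higher and 0.0132% lower in the third, and at 1.5 h against 1 h the calls that were higher were 100% with library totals alone in place of 80%. The nearest was Nr4a3 at 1.5 h against 1 h, with 1.08 ± 0.39 (SE; edgeR adjusted p = 0.371), where all 1.5 h libraries lay above all 1 h libraries, as for 7.47% of genes. Between 1.5 and 3 h edgeR called 0 members while 5.36% of all genes were called higher and 3.17% lower, DESeq2 called Nr4a2 lower, limma-voom called 0, and 2 had an unadjusted p under 0.05, beside 23.2% of all genes. The differences were -1.15 ± 0.47 for Nr4a1 (edgeR adjusted p = 0.133), whose 3 h libraries all lay below its 1.5 h libraries as for 12.3% of genes, -1.07 ± 0.36 for Nr4a2 (edgeR adjusted p = 0.0632) and -0.20 ± 0.39 for Nr4a3 (edgeR adjusted p = 0.801).

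Ordered by group mean, Nr4a1 ran 1 h, 1.5 h, 0.5 h, 3 h, ischemia, sham, 6 h and 12 h, and the libraries of neighbours in that order overlapped except for ischemia and sham. Nr4a2 ran 1.5 h, 1 h, 0.5 h, 3 h, ischemia, 6 h, sham and 12 h, and its neighbours overlapped except for ischemia and 6 h. For Nr4a3 the order was 1.5 h, 3 h, 1 h, 0.5 h, ischemia, 6 h, sham and 12 h, with gaps between 3 h and 1 h and between 6 h and sham. In some groups the same library was extreme for all 3 genes. Replicate 2 was the lowest of the 0.5 h and of the 1.5 h libraries for all 3, replicate 1 was the lowest at 12 h for all 3, and replicate 3 was the highest after ischemia for all 3. In other groups the members differed: sham replicate 3 was the highest for Nr4a1 at 77.4 CPM and the lowest for Nr4a3 at 6.80 CPM, and at 3 h and 6 h the highest library was not the same for all 3.

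The proportion between the members was compared per kb of gene length, which puts their levels on 1 scale, as a ratio within each library that does not depend on its scaling. In sham hearts Nr4a1 stood at 20.8 ± 9.82 CPM per kb, Nr4a3 at 1.62 ± 0.560 and Nr4a2 at 0.446 ± 0.0256 (SD, n = 3). Nr4a1 was above Nr4a3, and Nr4a3 above Nr4a2, in all 24 libraries. The length that the files give for Nr4a1, 2474 bases, is shorter than the 3509 bases of its GENCODE vM21 exons. A longer length would lower its level per kb by the same factor everywhere and would leave the tests of change as they are.

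The 3 members did not keep a fixed proportion. The ratio of Nr4a3 to Nr4a1 differed between the 8 groups (permutation test, 100000 resamples, F = 7.79, adjusted p = 0.00069), as did that of Nr4a3 to Nr4a2 (permutation test, F = 9.87, adjusted p = 0.00012) and that of Nr4a2 to Nr4a1 (permutation test, F = 3.74, adjusted p = 0.0137). The last was lost without 12 h replicate 1 (permutation test, F = 2.57, adjusted p = 0.0634), over a range of 0.00659 to 0.0634 in 28 alternatives. Per kb, Nr4a1 exceeded Nr4a3 by a factor of 12.4 in sham, 22.7 after ischemia, 28.1 at 0.5 h, 18.9 at 1 h, 9.06 at 1.5 h, 4.29 at 3 h, 5.57 at 6 h and 8.49 at 12 h (geometric means). Relative to Nr4a1, Nr4a3 was thus lowest at 0.5 h and highest at 3 h. Nr4a3 exceeded Nr4a2 by 3.43 times in sham, 1.80 after ischemia, 1.89 at 0.5 h, 3.33 at 1 h, 5.85 at 1.5 h, 10.2 at 3 h, 5.11 at 6 h and 2.17 at 12 h.

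In shares of the summed Nr4a reads per kb, Nr4a1 held 94.7% ± 1.28 at 0.5 h and 78.9% ± 7.32 at 3 h, against 89.7% ± 4.80 in sham (SD, n = 3). Nr4a3 held 3.45% ± 0.988 at 0.5 h and 19.2% ± 7.16 at 3 h, against 8.12% ± 4.06 in sham. Among sham libraries 1 was far below the other 2 for Nr4a3, at 3.45% against 10.1% and 10.8%. Nr4a2 held between 1.49% at 1 h and 4.86% at 12 h, and its 12 h value came from 22, 40 and 31 reads.

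**Figure D4:**
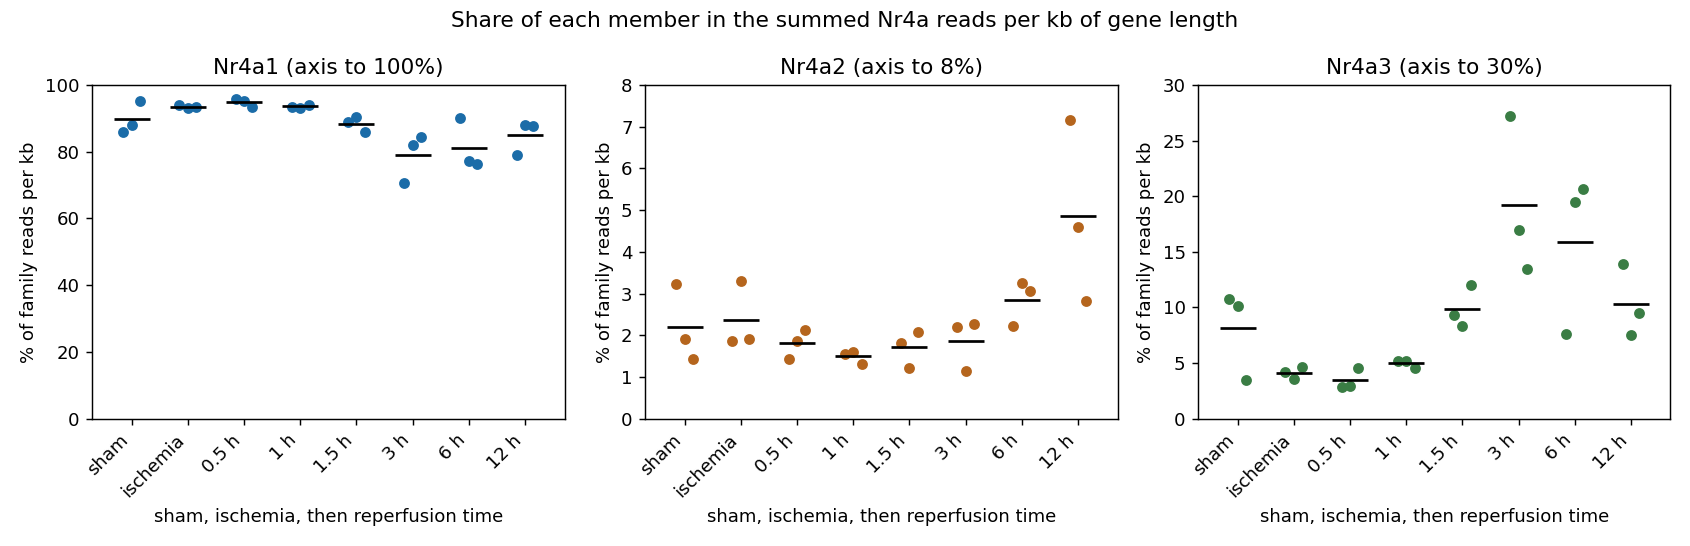
Share of each member in the summed Nr4a reads per kb of gene length (y axis, percent; the 3 axes end at 100%, 8% and 30%) in each library (points) with the group mean (bar). Nr4a3 is lowest at 0.5 h and highest at 3 h, at means of 3.45% and 19.2%, while Nr4a1 runs the other way.

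Likeness was described by Pearson's correlation of log2 CPM over the 24 libraries, which share groups and depth. With the members themselves left out, the genes most like Nr4a1 were Apold1 (r = 0.966), an early response gene of endothelium, Fos (0.953), Dusp1 (0.945), a phosphatase of MAP kinases, Gem (0.942), a small GTPase, and Sik1 (0.924), a kinase. The genes most like Nr4a2 were Fos (0.963), Gem (0.951), Fosb (0.940), Zfp36 (0.930), which drives mRNA decay, and Klf4 (0.924). Those most like Nr4a3 were Atf3 (0.934), a stress-responsive factor of the ATF family, Ccnl1 (0.931), a cyclin linked to splicing, Irs2 (0.912), an adaptor of insulin signalling, Fosb (0.911) and Slc16a11 (0.909). Nr4a1 and Nr4a2 correlated at 0.950 with each other, each ranking 3 in likeness to the other, while Nr4a3 correlated at 0.817 with Nr4a1 and at 0.829 with Nr4a2, behind more than 40 other genes in each case.

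The levels of some of these genes are given here beside the members. Apold1 averaged 61.3 ± 31.2 CPM in sham, 348 ± 37.1 at 1 h and 89.1 ± 28.7 at 3 h (SD, n = 3). Fos averaged 12.0 ± 6.55 CPM in sham, 804 ± 133 at 1 h, 857 ± 170 at 1.5 h and 287 ± 99.6 at 3 h. Atf3 averaged 8.47 ± 0.389 CPM in sham, 576 ± 131 at 1.5 h and 464 ± 118 at 3 h, with 466 ± 98.9 at 1 h. Of the 12 genes, 10 had a promoter window: TGACG matched 3 times in Dusp1, 2 times in Fos and Ccnl1, 1 time in Apold1, Fosb, Klf4 and Atf3, and 0 times in Zfp36, Irs2 and Slc16a11, against 4 in each Nr4a window. Gem and Sik1 were the other 2. The whole palindrome TGACGTCA, which matches TGACG on both strands, stood 1 time in Dusp1 and 1 time in Ccnl1. It stood 0 times in each Nr4a window and in 1.79% of all windows.

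Among the 46 other nuclear receptor genes, 35 were tested, and 0 to 6 were called at the times up to 1.5 h. After ischemia edgeR, DESeq2 and limma-voom each called 0 of them, and edgeR called 3 without the low-count filter. At 0.5 h 4 were called higher (11.4%, beside 7.43% of all genes) and 2 lower (5.71%, beside 4.48%), and the total of 6 ran from 4 to 12 over 16 alternatives. Nr2f6 rose by 1.01 (edgeR adjusted p = 0.00629), Esrra, an orphan receptor that drives mitochondrial genes, by 0.95 (edgeR adjusted p = 0.00389), and Nr3c2, the mineralocorticoid receptor, fell by 1.07 (edgeR adjusted p = 0.00150). At 1 h 2 were higher and 0 lower, Nr1h2, a sterol sensor, at 0.73 and Esrra at 0.65 (edgeR adjusted p = 0.00269 and 0.0320), and at 1.5 h edgeR called Nr1h2 alone (up to 5 receptors in 16 alternatives), at 0.63 (edgeR adjusted p = 0.00904). The higher share was 5.71% at 1 h and 2.86% at 1.5 h, beside 7.46% and 4.55% of all genes, and the lower share was 0% at both, beside 3.41% and 2.99%. The median log2 fold change of the 35 was between -0.14 and -0.03 in the 7 comparisons with sham, beside -0.01 to 0.01 over all genes.

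At 3 h 6 were higher and 6 lower (17.1% each, beside 18.4% and 16.9% of all genes), at 6 h 7 and 10 (20% and 28.6%, beside 24.6% and 22.9%), and at 12 h 5 and 11 (14.3% and 31.4%, beside 16.9% and 14.9%). Rara, a retinoic acid receptor, rose by 1.18 at 3 h (edgeR adjusted p = 2.21e-06). Nr3c2 fell by 2.43 at 6 h, to 5.28 ± 1.98 CPM against 28.5 ± 4.46 CPM in sham (edgeR adjusted p = 3.08e-09). Nr1d1, a repressor of the circadian clock, fell by 1.36 at 12 h (edgeR adjusted p = 0.000373).

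**Figure D5:**
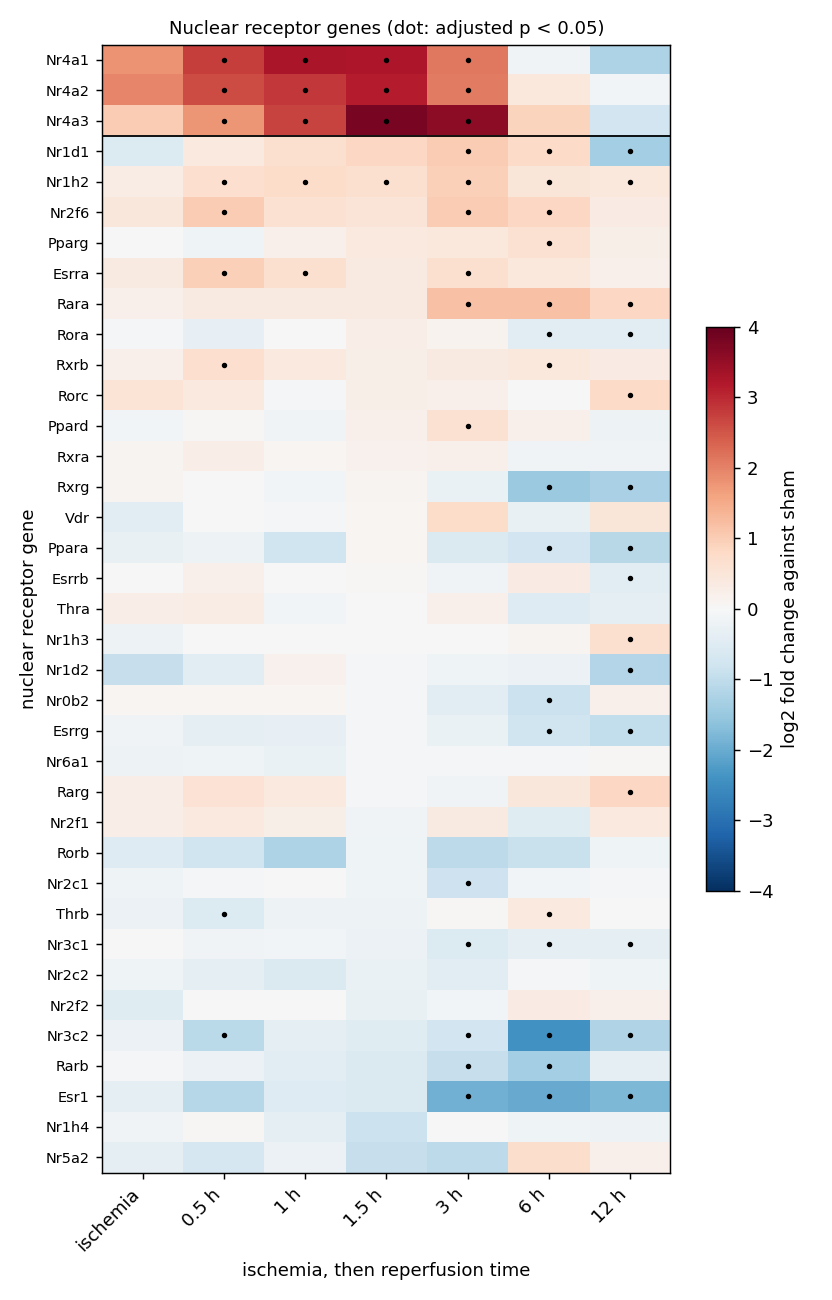
Log2 fold change against sham (colour) of the 3 Nr4a genes (top rows) and 34 of the 35 other nuclear receptor genes tested (rows in order of their value at 1.5 h), after ischemia and at each reperfusion time; dots mark an adjusted p under 0.05. The Nr4a rows reach 3.78 at 1.5 h, where Nr1h2 is the one other receptor with a dot, at 0.63.

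Of 21 partners and coregulators, all tested, the retinoid X receptors with which Nr4a1 and Nr4a2 pair were read first. Rxra averaged 69.8 ± 1.60 CPM at 0.5 h, 62.1 ± 8.24 at 1 h and 65.1 ± 7.85 at 1.5 h, against 58.3 ± 2.29 in sham (SD, n = 3), and was not called in any of the 7 comparisons with sham. Rxrb rose by 0.66 at 0.5 h (edgeR adjusted p = 0.00716) and by 0.42 at 6 h (edgeR adjusted p = 0.0220). Rxrg fell by 1.49 at 6 h, to 21.2 ± 4.61 CPM against 59.6 ± 5.31 CPM in sham, and by 1.30 at 12 h (edgeR adjusted p = 3.59e-07 and 4.75e-06). Over the whole list, edgeR called 0 higher and 0 lower after ischemia, 4 and 1 at 0.5 h, 2 and 0 at 1 h, 2 and 0 at 1.5 h, 7 and 0 at 3 h, 9 and 4 at 6 h, and 4 and 2 at 12 h. At 0.5 h 19.0% were higher and 4.76% lower, beside 7.43% and 4.48% of all genes. At 1 and 1.5 h 9.52% were higher and 0% lower. Of all genes it was 7.46% and 3.41% at 1 h, and 4.55% and 2.99% at 1.5 h. At 3 h 33.3% were higher and 0% lower, beside 18.4% and 16.9% of all genes. At 6 h it was 42.9% and 19.0%, beside 24.6% and 22.9%, and at 12 h 19.0% and 9.52%, beside 16.9% and 14.9%. Stk11, a kinase whose product is held in the nucleus by Nr4a1, rose by 0.92 at 3 h, and Hdac7, a class IIa histone deacetylase, rose by 1.40 at 6 h (edgeR adjusted p = 2.02e-05 and 1.95e-06).

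Of 21 genes for factors known to act upstream of the family (CREB and its coactivators, MEF2, SRF and its cofactors, kinases and cell-surface receptors), 20 were tested. EdgeR called 0 after ischemia, 2 higher and 3 lower at 0.5 h, 2 and 2 at 1 h, 1 and 1 at 1.5 h, 4 and 5 at 3 h, 8 and 4 at 6 h, and 1 and 1 at 12 h. At 0.5 h that is 10% higher and 15% lower, beside 7.43% and 4.48% of all genes. At 1 h it is 10% each, beside 7.46% and 3.41%, and at 1.5 h 5% each, beside 4.55% and 2.99%. At 3 h it is 20% higher and 25% lower, beside 18.4% and 16.9% of all genes. At 6 h it is 40% and 20%, beside 24.6% and 22.9%, and at 12 h 5% each, beside 16.9% and 14.9%. Creb1 itself fell by 0.57 at 1 h and by 0.95 at 3 h (edgeR adjusted p = 0.0303 and 0.000147), while Crtc2, a CREB coactivator, rose by 1.11 at 3 h (edgeR adjusted p = 3.60e-06). These are transcript levels, and the activity of such factors is mostly set on the protein.

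Genes that respond to cyclic AMP and CREB in many cell types were called higher in part at these times. Of 20, 17 were tested, and edgeR called 4 higher after ischemia, 8 at 0.5 h, 11 at 1 h, 11 at 1.5 h and 12 at 3 h with 0 lower, then 6 higher and 5 lower at 6 h and 2 higher and 5 lower at 12 h. The higher share was 23.5% after ischemia, 47.1% at 0.5 h, 64.7% at 1 h and 1.5 h and 70.6% at 3 h. Of all genes it was 0.0925%, 7.43%, 7.46%, 4.55% and 18.4%. At 6 h 35.3% were higher and 29.4% lower, beside 24.6% and 22.9% of all genes. At 12 h 11.8% were higher and 29.4% lower, beside 16.9% and 14.9%. Those of the 17 not called numbered 9 at 0.5 h, 6 at 1 h, 6 at 1.5 h and 5 at 3 h, and the ischemia count of 4 ran from 2 to 9 over 16 alternatives. Their median log2 fold change was 1.57 at 1.5 h, beside -0.01 over all genes. Of the 36 other immediate early genes, 35 were tested, and the calls were 7 higher after ischemia, 32 at 0.5 h, 33 at 1 h, 34 at 1.5 h, 34 at 3 h and 31 at 6 h with 0 lower, and 14 higher and 2 lower at 12 h. Beside the same shares of all genes, 20% of these were higher after ischemia, 91.4% at 0.5 h, 94.3% at 1 h and 97.1% at 1.5 and 3 h. At 12 h 40% were higher and 5.71% lower. The median of the immediate early genes was 2.76 at 1.5 h. After ischemia that count of 7 ran from 2 to 26 over 16 alternatives. Fos, Fosb, Junb and Dusp1 stand in both lists.

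At 6 h, where 0 of 3 Nr4a genes were called, 31 of 35 immediate early genes were called higher, beside 24.6% of all genes. Arc, which acts at synapses, rose by 5.44, to 84.9 ± 63.9 CPM against 1.96 ± 0.244 CPM in sham (edgeR adjusted p = 1.22e-06). The highest group mean was at 1 h for 11 of the 35, at 1.5 h for 10, at 3 h for 9, at 6 h for 4 and at 12 h for 1. Nr4a1 belonged with the first of these by its mean, although its 1 h and 1.5 h means were 490.2 and 489 CPM, and Nr4a2 and Nr4a3 with the second. Rgs2, a brake on G protein signals in the CREB list, fell by 2.04 at 6 h (edgeR adjusted p = 3.13e-05).

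A list of 31 genes reported elsewhere to be Nr4a targets, drawn from muscle, immune, steroid-producing and dopamine cells, had 22 genes tested. EdgeR called 0 after ischemia, 3 higher and 1 lower at 0.5 h, 4 and 1 at 1 h, 2 and 0 at 1.5 h, 5 and 1 at 3 h, 6 and 5 at 6 h, and 5 and 7 at 12 h. The higher share was 13.6% at 0.5 h, 18.2% at 1 h and 9.09% at 1.5 h, beside 7.43%, 7.46% and 4.55% of all genes. It was 22.7% at 3 h and at 12 h, beside 18.4% and 16.9% of all genes, and 27.3% at 6 h. The lower share was 4.55% at 0.5 h and at 1 h and 0% at 1.5 h, beside 4.48%, 3.41% and 2.99% of all genes. It was 4.55% at 3 h, 22.7% at 6 h and 31.8% at 12 h, beside 16.9%, 22.9% and 14.9% of all genes. The median log2 fold change stayed between -0.13 and 0.23, beside -0.01 to 0.01 over all genes. Birc3, an inhibitor of cell death, rose by 1.34 at 1.5 h and 1.67 at 3 h (edgeR adjusted p = 1.80e-05 and 2.89e-07), and Nfkbia, which restrains NF-kappaB, rose by 0.72 at 1.5 h (edgeR adjusted p = 0.0147). Spp1, which macrophages and fibroblasts make, was called higher at 12 h (edgeR adjusted p = 7.23e-08), at 15.7 ± 2.85 CPM against 0.151 ± 0.206 CPM in sham, where its mean was under the level of 3 counts. Of all genes, 24.6% were called higher and 22.9% lower at 6 h.

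The 10 neutrophil markers had summed levels wholly above those of sham in each group from ischemia to 12 h. They summed to 3.63 to 6.56 CPM in sham, 9.86 to 16.0 CPM after ischemia and 10.1 to 14.4 CPM at 0.5 h. At 1, 1.5 and 3 h they summed to 10.7 to 14.6, 9.76 to 24.1 and 10.3 to 30.8 CPM. At 6 and 12 h they summed to 63.3 to 154 and 57.3 to 65.7 CPM. Of the defining ones, Ly6g was at 0 reads in sham, at 0.5 h and at 1.5 h, and Camp at 1 h and 1.5 h. The 6 monocyte markers summed to 1.48 to 2.15 CPM at 0.5 h, 1.39 to 2.34 CPM at 1.5 h, 1.18 to 2.05 CPM at 3 h, 14.7 to 35.0 CPM at 6 h and 41.2 to 56.9 CPM at 12 h, against 2.88 to 4.49 CPM in sham. Fcnb had 0 reads in every group, and Cd300e had 0 reads in sham and from 3 to 12 h. The 10 resident macrophage markers summed to 287 to 304 CPM in sham and 337 to 359 CPM after ischemia. At 0.5, 1 and 1.5 h they summed to 304 to 355, 309 to 369 and 290.4 to 329 CPM. At 3, 6 and 12 h they summed to 256 to 329, 316 to 372 and 281 to 324 CPM. The sums after ischemia, at 1 h and at 6 h lay wholly above sham. The 9 endothelial markers summed to 1429 to 1706 CPM in sham and 1477 to 1583 CPM after ischemia. At 0.5, 1 and 1.5 h they summed to 1655 to 1759, 1717 to 2001 and 1387 to 1769 CPM. At 3, 6 and 12 h they summed to 1816 to 2149, 2051 to 2153 and 1402.5 to 2025 CPM. The sums at 1, 3 and 6 h lay wholly above sham. The 8 fibroblast markers summed to 1047 to 1322 CPM at 1.5 h, against 1315 to 1384 CPM in sham. They lay wholly below sham only at 6 h (545 to 840 CPM) and 12 h (734 to 1206 CPM). The 8 markers of smooth muscle and pericytes summed to 1114 to 1221 CPM in sham. They lay wholly below sham after ischemia (1019 to 1045 CPM), at 0.5 h (848 to 1007) and at 1 h (922 to 1047). They were also wholly below it at 6 h (739 to 1038 CPM) and 12 h (803 to 961). At 1.5 h (1012 to 1161 CPM) and 3 h (1090 to 1242) they overlapped sham. The 9 of T and NK cells summed to 3.67 to 4.52 CPM at 1.5 h against 3.70 to 9.05 CPM in sham. Their sums lay wholly below sham only at 6 h (2.304 to 2.96 CPM). The 6 of platelets summed to 16.5 to 20.8 CPM at 1.5 h against 14.7 to 17.2 CPM in sham. The platelet sums lay wholly above sham at 1, 3, 6 and 12 h (21.4 to 39.1 CPM at 6 h). The part of cell composition in the Nr4a changes was not tested.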

How the data were processed

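Each library's table of whole-number read counts per Ensembl gene was used as deposited; per the file headers the columns are those of a dupRadar matrix. The submitters' processing notes name the mm10 build. Which aligner, counter, duplicate marker, strand setting and annotation made the counts is not given in the sources used here. RNA was extracted with Trizol and libraries were made with an Illumina TruSeq RNA kit, per the labels' protocols. Uniquely mapped reads with duplicates kept were the main counts. Symbols were matched for 45143 of 46078 IDs, and positions come from GENCODE vM21.

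Genes were kept by filterByExpr (minimum count 10, minimum total 15), which left 15128, and tested with edgeR 4.0.16 (TMM, quasi-likelihood test, 8 groups in 1 fit, 16 residual degrees of freedom) in R 4.3.3, and p-values were adjusted by Benjamini-Hochberg separately for 7 comparisons with sham, 6 between consecutive times and 1 across groups. Genes were called at an adjusted p under 0.05. Ratios between members were tested on log2 reads per kb (0.5 added to counts) with 100000 permutations, adjusted over 3 pairs. The fits were tested on simulated data. Intervals are SDs or SEs. The SE of a log2 fold change was derived from edgeR's test, as its absolute value divided by the square root of F. The level of 3 counts covers counting error only.

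The members and gene lists were chosen with earlier results of these data known. From each list at most 3 called genes with the largest change in each comparison are named, the retinoid X receptors always, and for likeness the 5 genes, members left out, with the highest correlation; some genes that this rule names are not reported here. Alternatives were other scalings, no low-count filter, DESeq2 1.42.0, limma-voom (limma 3.58.1), duplicates removed, multiply mapped reads included, a replicate block, fits of only the 2 groups, another pseudocount and each library left out in turn.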

Additional observations from a re-analysis of the deposited data

How the results depend on the processing

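Of the member calls against sham from 0.5 to 3 h, all but Nr4a3 at 0.5 h held in all 16 alternatives tried for each, as did the 3 calls at 6 h against 3 h. With each library left out in turn, Nr4a3 ran from 1.09 to 2.15 at 0.5 h against sham and from -2.11 to -1.45 at 12 h against 6 h, and the F of the ratio of Nr4a2 to Nr4a1 from 2.57 to 4.73. Values not called in the fit of all libraries ran from 1.77 to 2.17 (Nr4a2, ischemia against sham), -1.69 to -0.82 (Nr4a1, 12 h against sham), -1.40 to -0.82 (Nr4a2, 3 h against 1.5 h), -0.78 to 0.29 (Nr4a1, 6 h against sham), -0.27 to 0.0775 (Nr4a2, 12 h against sham), -0.0911 to 0.77 (Nr4a2, 1 h against 0.5 h) and -0.21 to 0.19 (Nr4a1, 1.5 h against 1 h). The last was 0.00698 with DESeq2 size factors, 0.00831 scaled without mitochondrial genes, 0.0205 with no filter, 0.00697 by DESeq2 and 0.00313 in a fit of the 2 groups, against -0.00412, and Nr4a2 at 12 h against sham was 0.0995 with library totals alone. Leaving out a library gained some calls. Without ischemia replicate 1 Nr4a2 was called after ischemia, at 2.17 (edgeR adjusted p = 0.0315). Nr4a1 was called lower at 12 h against sham without 12 h replicate 3 or sham replicate 1, at -1.69 and -1.51 (edgeR adjusted p = 0.0237 and 0.0324). Nr4a2 was called lower at 3 h against 1.5 h without 1.5 h replicate 2, at -1.40 (edgeR adjusted p = 0.0245).

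Without the low-count filter, calls were gained against sham after ischemia (Nr4a1 1.80, Nr4a2 1.96, Nr4a3 1.03), at 6 h (Nr4a3 0.91) and at 12 h (Nr4a1 -1.21, Nr4a3 -0.75). That fit gave far smaller adjusted p-values at nearly the same fold changes. For Nr4a1 after ischemia the edgeR adjusted p was 7.78e-31, against 0.242 with the filter. Calls were also gained at 0.5 h against ischemia (Nr4a1 0.96, Nr4a3 0.72), 1 h against 0.5 h (Nr4a3 0.95), 1.5 h against 1 h (Nr4a3 1.10), 3 h against 1.5 h (Nr4a1 -1.15, Nr4a2 -1.08) and 12 h against 6 h (Nr4a1 -1.10). DESeq2 called Nr4a2 after ischemia (1.96) and at 3 h against 1.5 h (-1.07). Fits of the 2 groups alone called Nr4a1 and Nr4a2 after ischemia (1.80 and 1.96), Nr4a3 at 6 h (0.89) and Nr4a1 at 12 h (-1.24), and scaling without mitochondrial genes called Nr4a1 at 12 h (-1.26). The cause was not tested.

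Counts over all genes moved too. After ischemia 14 were called, against 289 with no filter, 48 by DESeq2, 3 by limma-voom and 31 in a fit of the 2 groups. For 0.5 h against ischemia 5 were called, against 329 with no filter, 62 by DESeq2, 15 with duplicates removed and 0 in a fit of the 2 groups. For 1.5 h against 1 h 10 were called, against 357 with no filter, 70 by DESeq2, 2 by limma-voom, 2 with library totals alone and 1 in a fit of the 2 groups. For 1 h against 0.5 h 0 were called, against 159 with no filter. Fits of the 2 groups called 3932 genes against 1802 at 0.5 h, 2059 against 1141 at 1.5 h, and 693 against 1290 at 3 h against 1.5 h. With a library left out the counts ran from 4 to 42 (ischemia), 611 to 1104 (0.5 h), 566 to 1690 (1 h), 516 to 1077 (1.5 h), 3911 to 5017 (3 h), 5797 to 6747 (6 h) and 3779 to 4318 (12 h). Between consecutive times they ran from 2 to 1170, 0 to 3, 0 to 22, 521 to 1760, 2842 to 4519 and 791 to 1799.

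Calls within the lists moved as well, at 0.5 h from 4 to 12 of the other nuclear receptors (6 in the report), 2 to 8 of the upstream genes (5), 2 to 10 of the partners (5) and 1 to 9 of the reported targets (4), and at 1 h from 1 to 6 of the other nuclear receptors (2).

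The deviations of same-numbered libraries from their group means correlated at -0.179 to 0.199, of which 6 of 84 were above 0.1. Those of libraries with different numbers correlated at -0.186 to 0.172, of which 17 of 168 were above 0.1. The replicate numbers were therefore not used as pairs, and a shared batch or day was not tested. With the replicate block no member call changed, and 12 genes in place of 5 were called at 0.5 h against ischemia. Nr4a2, with 22 to 315 reads per library, is the member that depth limits most.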
